A study of Mus musculus with 6 samples.

Results

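The genes described here are 7 lymphoid homing chemokines and chemokine receptors of the mouse, among 31055 genes counted in single cells. The ligands are Cxcl13, Ccl19, Ccl21a and Cxcl12, and the receptors are Cxcr5, Ccr7 and Cxcr4. They were chosen by name, to be followed across macrophages, fibroblasts, endothelium, T cells, B cells and disease states, and Cxcl13 was also selected on its measured counts, which were almost absent from the Tumor libraries. Its levels by state are therefore given as a description without a test. The libraries came from female C3TAG mice, in which the C3(1) promoter drives the SV40 large T antigen in mammary epithelium on the FVB/NJ background. Prepuberty libraries were made from whole mammary glands at 5 weeks of age, DCIS libraries from whole glands holding ductal carcinoma in situ at 14 weeks, and Tumor libraries from palpable mammary tumors after 18 weeks, with 2 libraries per state. All mice carried the transgene, no transgene-free gland was among the groups compared, and age and tissue change together with state, so their contributions cannot be told apart.

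Chemokines are small secreted proteins that guide cells bearing the matching G protein-coupled receptor. In lymph nodes and tertiary lymphoid structures, Cxcl13 from follicular stroma draws Cxcr5-bearing B cells and follicular helper T cells. Ccl19 and the forms of Ccl21, from T-zone stroma, high endothelial venules and lymphatic vessels, draw Ccr7-bearing naive T cells and mature dendritic cells. Cxcl12, made by many mesenchymal and endothelial cells, retains and guides Cxcr4-bearing leukocytes and progenitors, and Cxcr4 is also a known receptor of sprouting endothelium.

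On GRCm38, by the GENCODE annotation, the ligand genes lie at chr5:95956951-95961068 on the plus strand (Cxcl13), chr4:42754525-42756577 and chr4:42772860-42773993 on the minus strand (Ccl19 and Ccl21a) and chr6:117168535-117181367 on the plus strand (Cxcl12), and the receptor genes lie on the minus strand at chr9:44511787-44561877 (Cxcr5), chr11:99144196-99155077 (Ccr7) and chr1:128588199-128592293 (Cxcr4). Of the 7 members, 5 had a RefSeq promoter sequence on GRCm38.p6, whereas Cxcr5 and Ccr7 are named only. The 250 bases before the start that RefSeq annotates, which differs from the GENCODE start, are shown for the 3 ligands whose counts were near or at 0 in tumors, written 5′ to 3′ along the gene, with TATAAA in capitals wherever it was found on the gene's strand. The Ccl19 and Ccl21a windows therefore overlap the gene spans given, and the Cxcl13 window ends short of its gene span.
Cxcl13 promoter, chr5:95956689-95956938: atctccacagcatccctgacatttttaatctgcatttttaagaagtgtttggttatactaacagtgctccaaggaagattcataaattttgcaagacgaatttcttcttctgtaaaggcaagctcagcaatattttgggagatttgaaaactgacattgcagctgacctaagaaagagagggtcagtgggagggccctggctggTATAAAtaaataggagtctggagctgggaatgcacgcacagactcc
Ccl19 promoter, chr4:42756366-42756615: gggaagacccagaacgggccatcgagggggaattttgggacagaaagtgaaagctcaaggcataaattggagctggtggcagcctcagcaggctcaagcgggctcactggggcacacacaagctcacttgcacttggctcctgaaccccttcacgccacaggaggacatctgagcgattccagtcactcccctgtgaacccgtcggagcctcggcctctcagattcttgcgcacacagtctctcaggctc
Ccl21a promoter, chr4:42773992-42774241: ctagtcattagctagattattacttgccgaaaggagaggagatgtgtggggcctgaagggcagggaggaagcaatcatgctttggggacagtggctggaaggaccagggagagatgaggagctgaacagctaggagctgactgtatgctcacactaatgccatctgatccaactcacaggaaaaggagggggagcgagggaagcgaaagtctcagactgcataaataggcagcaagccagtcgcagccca
Cxcl13 lies on the plus strand of chromosome 5 and its TATAAA runs from base 46 to base 41 before the RefSeq start, whereas the Ccl19 and Ccl21a windows, on the minus strand of chromosome 4, hold no such match. TATAAA was searched on both strands and occurs in 12.4% of 32851 promoters of this length. The NF-kB consensus motif was found in none of the 3 windows and in 3.9% of all promoters, which says only that these letters are not in these windows. GC content was 42% for Cxcl13, 58.4% for Ccl19 and 52.8% for Ccl21a.

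After filtering, 21537 of 23835 barcodes were kept, from 2548 to 4306 per library, with a median of 6541 to 13631.5 unique molecular identifiers (UMIs, each marking 1 captured transcript) per cell. Clustering gave 23 clusters, of which 18 were named from marker genes and 5 stayed unnamed, and 259 of 21276 barcode sequences occurred in more than 1 library. Levels are given as CPM, the UMIs of a gene divided by all UMIs of the cells summed and scaled to counts per 1e6, and intervals cover counting error only. The B-cell markers summed to between 0.421 and 19.5 CPM per library, highest in Prepuberty 2, where 71 of the 115 B-cell-like cells lay. The T-cell markers other than Trbc2 summed to 1.31 to 25.5 CPM. Endothelial markers summed to 387 to 1143 CPM in the gland libraries and to 93.3 and 41.7 CPM in Tumor. The labels describe an overnight digestion and a v2 kit throughout, but in the paper's methods tumors were dissociated with a different kit and Tumor 2 was made with v3 chemistry, and the paper calls the pair of libraries of a state technical replicates in its results and specimens in its discussion. The labels do not say whether they came from separate mice, so p-values measure only the spread between these libraries, which may be technical.

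Across all kept cells of a library, 3 of the 4 ligands, Ccl19, Ccl21a and Cxcl12, were lower in Tumor than in Prepuberty by edgeR's quasi-likelihood test, and the receptors Ccr7, Cxcr5 and Cxcr4 did not pass it. Ccl19, a T-zone ligand, stood at 2.02 and 15.2 CPM in Prepuberty 1 and 2, 2.74 and 0.923 CPM in DCIS 1 and 2, and 0.0875 and 0 CPM in Tumor 1 and 2. Both Tumor libraries lay below every gland library. Such separation was common, since the libraries of the states did not overlap for 57.8% of all genes in Tumor against Prepuberty, 63.4% in Tumor against DCIS and 56.5% in DCIS against Prepuberty. The Ccl19 log2 fold change in Tumor against Prepuberty was -7.53 (SE 1.51, adjusted p = 0.0256). The pooled ratio of Prepuberty to Tumor was 147, or 40.1 without Prepuberty 2, 302 without Prepuberty 1 and 84.6 without Tumor 2.

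Ccl21a, a Ccl21 gene, was at 29.4 and 118 CPM in Prepuberty, 2.46 and 0.0866 CPM in DCIS, and 0 in both Tumor libraries. The states did not overlap, in descending order from Prepuberty to Tumor. Pooled over the pair of libraries, Ccl21a was at least 2176-fold lower in Tumor than in Prepuberty and at least 38.3-fold lower than in DCIS, with 3 UMIs over the Tumor group as the floor. Against Prepuberty this bound was 973 without Prepuberty 2, 3922 without Prepuberty 1, 924 without Tumor 1 and 1252 without Tumor 2. The DCIS level rested on DCIS 1, which held 70 of the 73 UMIs. Without DCIS 1 only 3 UMIs were left, as few as the floor itself, so no bound holds without that library, and without Tumor 1, Tumor 2 or DCIS 2 the bound against DCIS was 16.3, 22 and 81.3. The adjusted p by the quasi-likelihood test was 0.0197 against Prepuberty, 0.0953 against DCIS, and 0.289 for DCIS against Prepuberty. Ccl21a entered this test only through the libraries where it is high, both Prepuberty libraries and DCIS 1, so these p-values are descriptions.

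Cxcl12, the ligand of Cxcr4, was at 32.2 and 152 CPM in Prepuberty, 33 and 49.8 CPM in DCIS, and 8.19 and 12.3 CPM in Tumor. Prepuberty 2 was far above the rest, and the Tumor pair lay below all 4 gland libraries. Tumor against Prepuberty gave a log2 fold change of -3.42 (SE 0.68, adjusted p = 0.0251). The pooled ratio of Prepuberty to Tumor was 8.18, or 3.24 without Prepuberty 2 and 15.3 without Prepuberty 1.

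Cxcr4 was at 12 and 30 CPM in Prepuberty, 10.1 and 13.7 CPM in DCIS, and 8.64 and 3.06 CPM in Tumor, and its fold change did not pass the test (log2 fold change -1.99, SE 0.67, adjusted p = 0.0977). Ccr7, the receptor of Ccl19 and Ccl21a, ranged from 0.356 CPM in Tumor 2 to 17.8 CPM in DCIS 1, and its states overlapped in Tumor against Prepuberty (adjusted p = 0.598). Cxcr5, the receptor of Cxcl13, had 34 UMIs in all, with 9 in Prepuberty, 12 in DCIS and 13 in Tumor (adjusted p = 0.905 for Tumor against Prepuberty).

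All 7 members passed the low-count filter over all kept cells and 6 were tested, without Cxcl13. The 3 called lower are set against 12.6% of 15614 genes called in the same comparison. Ccl21a passed that filter only on both Prepuberty libraries and DCIS 1, and Ccl19 only on the gland libraries, where they are high, so the count of 3 is a description. All 3 calls were lost without Prepuberty 2 and again without Tumor 2. In Tumor against DCIS no member was called, where 4.53% of genes were, while 3 had an unadjusted p under 0.05, as 4325 of the 15614 genes did, and the same 3 ligands were called by DESeq2, which called 2882 genes. In DCIS against Prepuberty no member was called and 0% of genes were, with 2105 genes at an unadjusted p under 0.05 and 600 called by DESeq2. In these summed libraries, fewer cells of a type and less RNA per cell cannot be told apart. Fibroblast-like cells numbered 1442, 1019, 465 and 775 in the gland libraries and 178 and 191 in the Tumor libraries, and their part in the result was not tested.

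**Figure D1:**
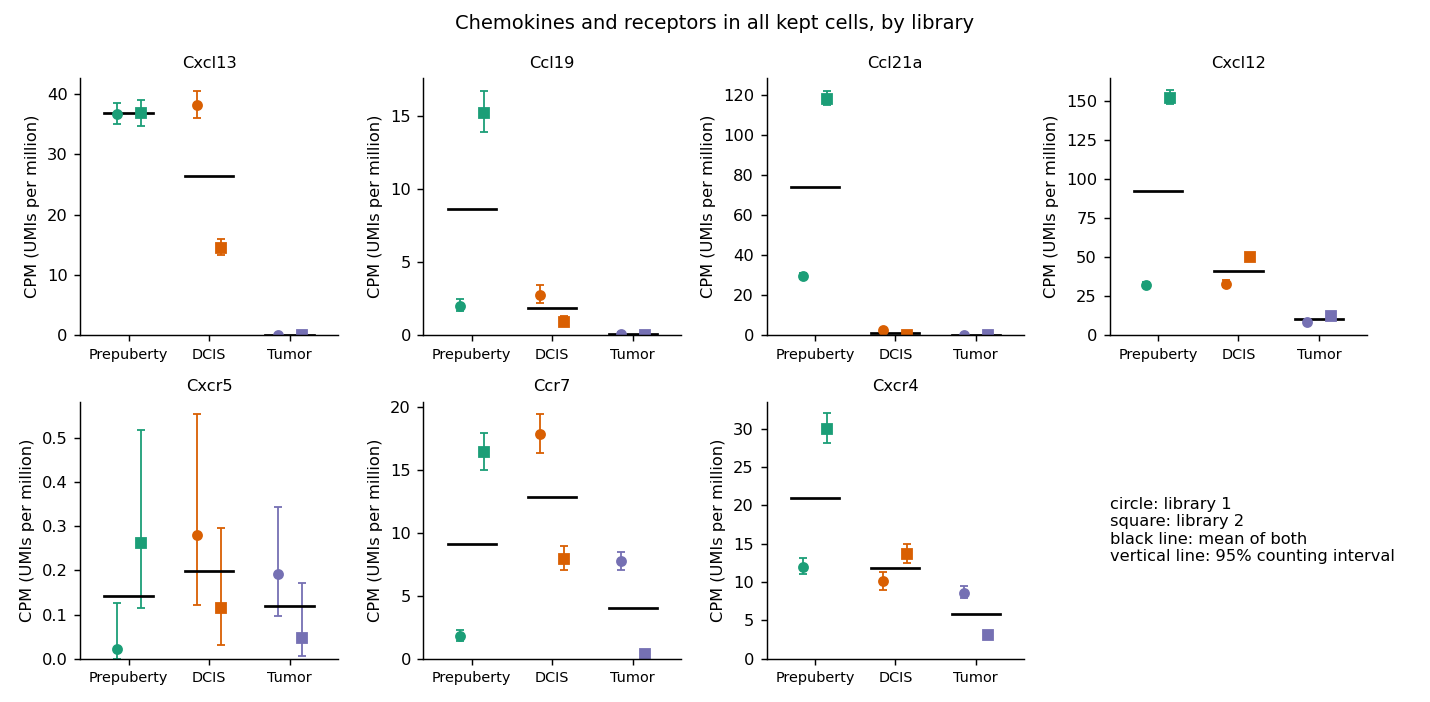
CPM of each of the 7 genes over all kept cells of a library, by state, with circles for library 1, squares for library 2, vertical lines for the 95% counting interval and a black line for the mean of both. Cxcl13 stands at 36.8 and 36.9 CPM in Prepuberty and at 0.035 and 0.0711 CPM in Tumor, and Ccl21a is at 0 in both Tumor libraries.

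The source cells of each member are described without a test because the clusters were built from the same counts. Of 9713 Cxcl12 UMIs, 63.3% lay in fibroblast-like cells and 20.3% in endothelial-like cells. Cxcl13 was divided among fibroblast-like cells (50.1% of 4345 UMIs), macrophage-like cells (26.7%) and epithelial-like clusters (18.1%), with none in T-cell-like or B-cell-like cells. These shares differed by state, since fibroblast-like cells held 65.5% of the Cxcl13 UMIs of Prepuberty and macrophage-like cells 69.5% of those of DCIS. Ccl19 had 48.3% of its 667 UMIs in pericyte or smooth muscle-like cells and 27.1% in fibroblast-like cells.

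Ccl21a was held by fibroblast-like cells (59.3% of 4973 UMIs) and endothelial-like cells (31.1%). This order rested on Prepuberty 2, which had 2941 of the 2948 fibroblast-like UMIs, whereas endothelial-like cells held 1279 of the 1297 UMIs of Prepuberty 1 and 70 of the 73 of DCIS. Among the receptors, Ccr7 had 59.7% of its 1819 UMIs in activated dendritic-like cells, 18.5% in T-cell-like cells and 12.3% in macrophage-like cells. In Tumor, T-cell-like cells held most of it (51% of 457 UMIs, against 30.2% in activated dendritic-like cells). Cxcr4 had 61% of its 2827 UMIs in endothelial-like cells, a non-hematopoietic class, 18.5% in macrophage-like cells and a further 324 UMIs in epithelial-like cells. The endothelial-like share of Cxcr4 was 87.7% in Prepuberty, 47.6% in DCIS and 15.7% in Tumor, where epithelial-like cells held 34.8% and macrophage-like cells 32.1% of 623 UMIs. The numbers of cells of each class also differed by state, and their part in these shares was not tested.

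**Figure D2:**
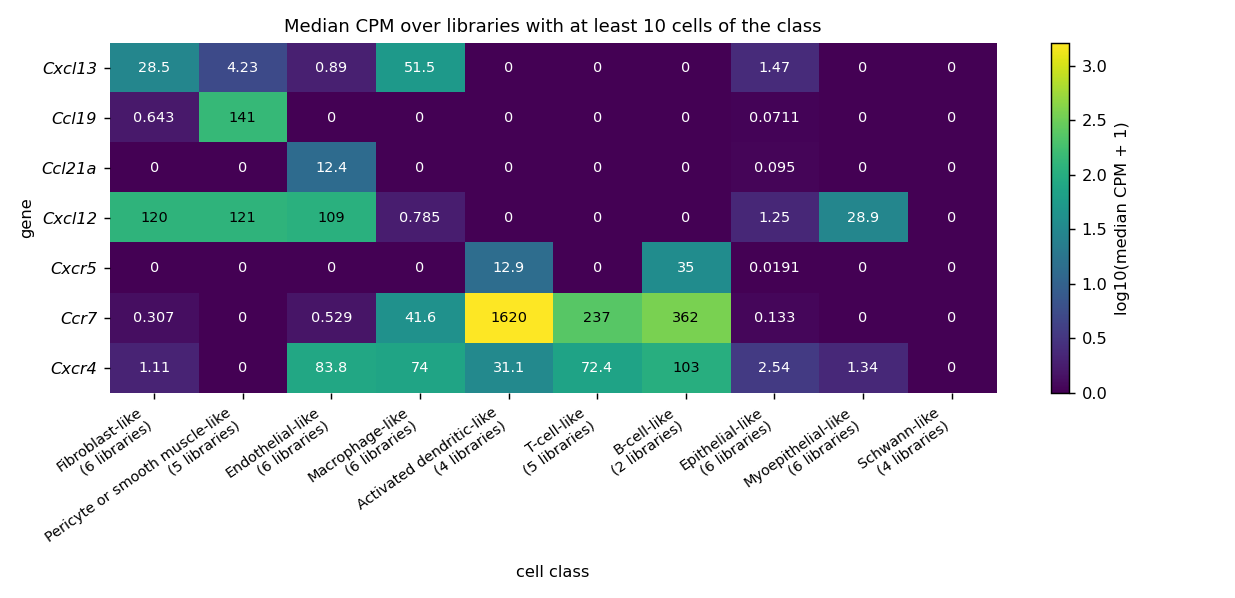
Heat map of the median CPM of each gene over the libraries with at least 10 cells of a class, coloured by log10 of the median CPM plus 1. Ccr7 is highest in activated dendritic-like cells at 1620 CPM, Cxcl12 stands near 120 CPM in fibroblast-like and pericyte or smooth muscle-like cells, and Cxcl13 is highest in macrophage-like cells at 51.5 CPM.

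Cxcl13, the follicular B-cell chemoattractant, was abundant in gland libraries and close to 0 in tumors. Over all kept cells it had 1623 and 1121 UMIs in Prepuberty, 1092 and 504 in DCIS, and 2 and 3 in Tumor. Pooled over libraries, its level was 36.8 CPM in Prepuberty, 25.3 CPM in DCIS and 0.0503 CPM in Tumor. The ratio of Prepuberty to Tumor was 731 (95% counting interval 313 to 2254) and that of DCIS to Tumor was 502 (215 to 1548), the latter 289 without DCIS 1 and 761 without DCIS 2. The 4 gland libraries lay well apart from both Tumor libraries.

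In fibroblast-like cells, Cxcl13 was at 87.3 and 37.6 CPM in Prepuberty, 58.2 and 19.3 CPM in DCIS, and 0.497 and 0.677 CPM in Tumor. The 4 gland libraries lay above both Tumor libraries, and states were separated in either direction for 65.1% of genes in Tumor against DCIS, 50.4% in Tumor against Prepuberty and 51.1% in DCIS against Prepuberty in this class. The Tumor values rest on 1 and 2 UMIs, and the ratio of Prepuberty to Tumor was 111 (95% counting interval 37.9 to 539), or 62.2 without Prepuberty 1. Fibroblast-like cells of tumors also carried other RNA, with the T antigen transcript in 17.4% and 45.5% of them against 0.86% or less in the gland libraries, and its part in the result was not tested. Without integration, most Tumor fibroblast-like cells lay in clusters with almost no gland cells, of 163 and 27 cells in Tumor 1 and 2 in one and 0 and 185 in the other.

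In macrophage-like cells, which are named from C1qa, Cd68 and other macrophage markers, Cxcl13 was at 101 and 2.08 CPM in Prepuberty, 507 and 367 CPM in DCIS, and 0.44 and 0.652 CPM in Tumor. DCIS libraries were highest and did not overlap with either other state, nor did those of 65.8% of genes in Tumor against DCIS, 53.8% in Tumor against Prepuberty and 43.5% in DCIS against Prepuberty. The Tumor values rest on 1 UMI each, and the ratio of DCIS to Tumor was 869 (95% counting interval 240 to 7184). Neutrophil markers in this class summed to 931 and 4909 CPM in Tumor and to 40.7 to 343 CPM in the glands, and without integration 341 and 111 of the 462 and 194 Tumor macrophage-like cells lay in a cluster with 1 to 5 cells of each gland library. Their part in the result was not tested. Epithelial-like clusters were at 5.86, 280, 2.28 and 0.661 CPM in the gland libraries in the same order and at 0 in both Tumor libraries, a separation shared in this class by 59.6% of genes in Tumor against DCIS, 56.3% in Tumor against Prepuberty and 54.2% in DCIS against Prepuberty. Endothelial-like cells did not exceed 2.04 CPM in any library.

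Within a class, Cxcl13 was held by few cells with many UMIs each. The 156 cells with at least 3 UMIs held 4057 of the 4345 UMIs, or 93.4%, and there were 52, 46, 35 and 23 such cells in the gland libraries and 0 in both Tumor libraries. In Prepuberty 1, 26 of the 716 cells of fibroblast-like cluster 1 held 1228 UMIs, 655 of them in 1 cell. The 5 highest cells of that library held 61.9% of its Cxcl13 UMIs, so the level of a library rested on a handful of cells.

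The Cxcl13-high cells of different libraries lay in different clusters. In DCIS 1, 15 macrophage-like cells held 779 UMIs, all 15 with C1qa, a complement subunit of tissue macrophages, and 13 with Cd68, and 16 of the 141 cells of fibroblast-like cluster 4 held 230 UMIs, all 16 with Pdpn, a glycoprotein of lymphoid stroma and activated fibroblasts. In DCIS 2, 7 macrophage-like cells held 322 UMIs, 6 of them with C1qa. Cxcl13-high macrophage-like cells had 2371 CPM of the monocyte attractant Ccl2 against 890 CPM in the macrophage-like cells without a Cxcl13 UMI of DCIS 1, and 3333 against 331 CPM in DCIS 2.

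Prepuberty 2 stood apart, since 19 of the 41 cells that clustered with epithelial-like cluster 6 held 659 of its 1121 Cxcl13 UMIs. None of the 19 had a UMI of the epithelial genes Epcam, Krt8 or Krt18, whereas 16 had the fibroblast gene Dcn, 12 had Pdpn, 17 had Enpp2, the enzyme autotaxin of lymphoid stroma, and 10 had Ccl19. These markers go against the epithelial-like name for these cells. Of 8 listed lymph node stroma genes, Enpp2 was at 82.1 CPM over all kept cells of Prepuberty 2 and at 9.7 to 49.2 CPM elsewhere, while the other 7, of which Bst1 alone was at 64.2 CPM in Tumor 2, summed to 11.2 CPM there and to 7.52 to 68.6 CPM elsewhere. Madcam1, an addressin of venules and lymphoid stroma, was highest in Prepuberty 2 (4.44 CPM against 2.15 CPM or less), as were Chst4 (0.559 against 0.105 or less) and Cr2 (0.263 against 0.0948 or less). Of the remaining 4, Coch was highest in Prepuberty 1 (15.1 CPM against 1.61 CPM in Prepuberty 2), and Bst1, Fut7 (0.284 against 0.132) and Il7 (3.75 against 0.395) were highest in Tumor 2. Whether lymph node tissue was part of the Prepuberty 2 gland, which also held most B-cell-like cells, was not tested. A further 12 of the 67 cells of fibroblast-like cluster 19 of that library held 180 UMIs. Without that library, the mean Cxcl13 level of Prepuberty over all kept cells was 36.8 CPM, from Prepuberty 1 alone.

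**Figure D3:**
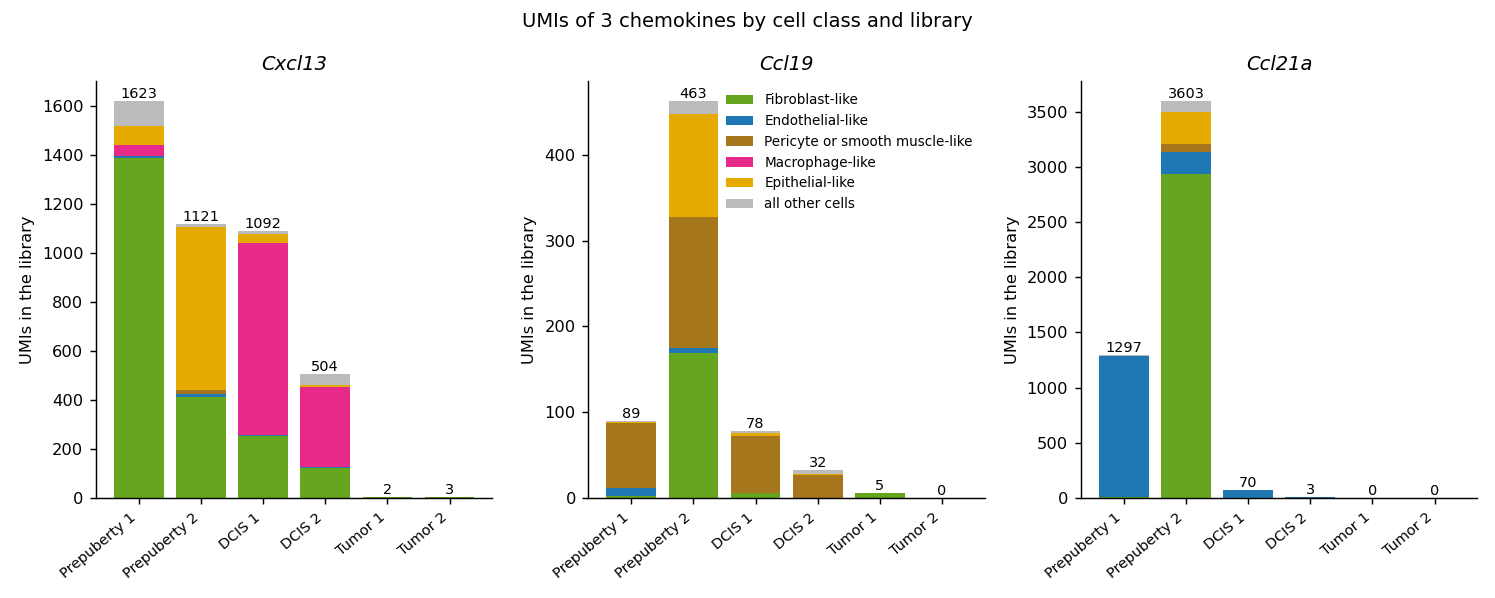
UMIs of Cxcl13, Ccl19 and Ccl21a in each library, as stacked bars coloured by cell class. Cxcl13 is at 2 and 3 UMIs in the Tumor libraries, and the tallest Ccl21a bar is Prepuberty 2, with 3603 UMIs.

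Ccl21a came from a very small number of cells of both stroma and vessels. The 73 cells with at least 3 UMIs held 4921 of 4973 UMIs (99%), and 63 of these cells were in Prepuberty 2, 8 in Prepuberty 1, 1 in each DCIS library and 0 in Tumor. In Prepuberty 1, 8 of the 328 cells of endothelial-like cluster 10 held 1277 UMIs, of which 7 had Prox1, the lymphatic endothelial transcription factor, 7 had Lyve1 and 8 had Mmrn1. These are lymphatic endothelial markers.

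In Prepuberty 2, by contrast, 36 of the 67 cells of fibroblast-like cluster 19 held 2936 Ccl21a UMIs, 35 of them with Dcn, 36 with Cxcl12 and 29 with Enpp2. In the same library 10 cells of endothelial-like cluster 10 held 188 UMIs, 6 with the venule gene Ackr1 and 1 with Prox1. Endothelial-like cells as a class were at 225 and 28.8 CPM in Prepuberty, 23.8 and 1.08 CPM in DCIS and 0 in both Tumor libraries, at least 41.2-fold lower in Tumor than in Prepuberty, and this did not pass the quasi-likelihood test (adjusted p = 0.0822, and 0.0197 by DESeq2). The bound was 10.1 without Prepuberty 1, 78.9 without Prepuberty 2, 10.5 without Tumor 1 and 30.8 without Tumor 2. In this class too, Ccl21a passed the low-count filter only on both Prepuberty libraries and DCIS 1, where it is high, so the p-values given for it are descriptions. Of the lymphatic endothelial markers, Pdpn, which fibroblasts share, was at 197 to 364 CPM over all kept cells of the gland libraries and at 40 and 53.1 CPM in Tumor. The other 5 summed to 5.05 to 14.4 CPM in the glands and to 10.8 and 4.57 CPM in Tumor, so the states overlapped, and their part in the result was not tested.

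Ccl21a and Ccl19 have near-identical copies in this genome region. Of 11 annotated features that carry these names or are their copies, only the 2 members and Gm13304, with 3 UMIs, had any count. Reads that match several copies may have been left out by the counting, so the levels of both genes are uncertain.

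Ccl19 was most abundant in pericyte or smooth muscle-like cells, named from Rgs5 and Kcnj8. In this class it was at 141 and 202 CPM in Prepuberty, 284 and 78.4 CPM in DCIS, and 0 in both Tumor libraries, which held only 19 and 5 such cells. The level was at least 8.42-fold lower in Tumor than in Prepuberty and at least 7.82-fold lower than in DCIS, with no test at this number of cells. Without Tumor 1 or Tumor 2 these bounds were 3.25 and 5.18 against Prepuberty and 3.02 and 4.81 against DCIS, and the bound against DCIS was 3.74 without DCIS 1 and 13.6 without DCIS 2. After thinning each cell to 2000 UMIs, a median of 16.7% of these cells had a Ccl19 UMI (25.9% unthinned), against at most 0.175% of endothelial-like cells.

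Ccl19-positive pericyte or smooth muscle-like cells had more Acta2, the smooth muscle actin, than the negative cells of the same library in all 4 gland libraries, at 1922 against 992 CPM and 3343 against 1897 CPM in Prepuberty, and 2627 against 396 CPM and 2654 against 1313 CPM in DCIS. In fibroblast-like cells Ccl19 was at 15.5 CPM in Prepuberty 2 and at or below 2.48 CPM in the other 5 libraries. The high fibroblast value came from the library that also held the Ccl21a-high cells of cluster 19. For Ccl19 over all kept cells, Tumor against DCIS gave -5.48 (SE 1.43, adjusted p = 0.0713, and 0.000171 by DESeq2).

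Cxcl12 was higher in tumors than in glands within endothelial-like cells, whereas its total over all cells was lower. Endothelial-like cells, named from Pecam1, Cdh5 and other vessel markers, had 73.2 and 113 CPM in Prepuberty, 105 and 79.8 CPM in DCIS, and 232 and 273 CPM in Tumor. Both Tumor libraries lay above every gland library, and the libraries of the compared states were apart for 54.9% of genes in Tumor against Prepuberty, 59.7% in Tumor against DCIS and 55.8% in DCIS against Prepuberty. The difference was a log2 fold change of 1.38 against Prepuberty (SE 0.29, adjusted p = 0.0168) and 1.05 against DCIS (SE 0.29, adjusted p = 0.0439). DCIS against Prepuberty gave 0.33 (SE 0.28, adjusted p = 0.663).

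Cxcl12 was the only member called by edgeR in endothelial-like cells of the 3 tested, where 12.3% of genes were called for Tumor against Prepuberty, 14.1% for Tumor against DCIS and 0% for DCIS against Prepuberty. The call against DCIS was lost when any 1 of the 6 libraries was left out (adjusted p from 0.0631 to 0.291), and that against Prepuberty without Prepuberty 1 (adjusted p = 0.12), Prepuberty 2 (0.0578) or Tumor 1 (0.074). Both were also lost at a mitochondrial limit of 5%. Without integration both were called (adjusted p = 0.0107 against Prepuberty and 0.0277 against DCIS), with 64 of 76 and 15 of 31 Tumor endothelial-like cells in a cluster led by genes such as Igfbp3 and Esm1 that held 0 gland cells.

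The makeup of the endothelial-like class differed by state as well. Cluster 10, led by the venule genes Ackr1 and Selp, held 328 of 703, 201 of 668, 256 of 424 and 170 of 353 endothelial-like cells in the gland libraries, but 7 of 79 and 5 of 34 in the Tumor libraries, and its Cxcl12 level in the glands was 29.2, 84.4, 31.9 and 17.6 CPM. In cluster 5, led by the capillary genes Gpihbp1 and Cldn5, Cxcl12 was at 102 and 122 CPM in Prepuberty, 201 and 127 CPM in DCIS, and 244 and 276 CPM in Tumor. Within that cluster the Tumor libraries, with 72 and 29 cells, had the highest values, with DCIS 1 close to Tumor 1. This was not tested, and the share of all genes separated in the same way in that cluster was not computed. Epithelial markers in endothelial-like cells summed to 199 CPM in Tumor 1 and to 26.2 to 57.5 CPM elsewhere, and their part in the result was not tested.

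Fibroblast-like cells had Cxcl12 at 43.1 and 308 CPM in Prepuberty, 106 and 165 CPM in DCIS, and 123 and 117 CPM in Tumor. The Prepuberty libraries spanned all others, and neither comparison with Tumor passed the test (log2 fold change -0.90, SE 0.77, adjusted p = 0.515 against Prepuberty, with 1.03 and adjusted p = 0.419 without Prepuberty 2, and -0.77, SE 0.77, adjusted p = 0.548 against DCIS). No member was called in fibroblast-like cells by edgeR, where 6.83% of genes were called for Tumor against DCIS, 4.64% for Tumor against Prepuberty and 0% for DCIS against Prepuberty. Cluster 4, where Cxcl12 was at 16.2 to 48.7 CPM in the glands, held 486 of 1442, 421 of 1019, 141 of 465 and 337 of 775 fibroblast-like cells of the gland libraries but 24 of 178 and 16 of 191 in Tumor, and its part in the result was not tested. At an unadjusted p under 0.05, the numbers of genes in these 3 comparisons were 3322, 2852 and 891, and DESeq2 called 1842, 1500 and 61.

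The state effect on Cxcl12 was larger in endothelial-like than in fibroblast-like cells by 1.79 on the log2 scale for Tumor against DCIS (SE 0.67, adjusted p = 0.222) and by 1.67 for Tumor against Prepuberty (SE 0.69, adjusted p = 0.202). Neither difference passed the test, where 2.09% and 3.44% of genes did. Leaving out Prepuberty 1, the library with the lowest fibroblast level, brought both below the threshold (adjusted p = 0.0328 and 0.00749), as did leaving out Prepuberty 2 for Tumor against DCIS (0.0386).

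In the remaining stromal and epithelial classes, Cxcl12 was lower in the Tumor libraries in plain values. Myoepithelial-like cells had 49.3 and 51.3 CPM in Prepuberty, 29.3 and 28.4 CPM in DCIS, and 3 and 4.2 CPM in Tumor. Pericyte or smooth muscle-like cells had 105 and 121 CPM in Prepuberty, 250 and 292 CPM in DCIS, and 0 in both Tumor libraries, at least 5.48-fold and 13.1-fold lower than in Prepuberty and DCIS (2.11 and 5.06 without Tumor 1, 3.37 and 8.06 without Tumor 2). Neither class was tested. Without integration, the myoepithelial-like cluster held 85, 121, 188 and 640 gland cells and 0 Tumor cells, so no Tumor level could be given. In epithelial-like cells, where Cxcl12 did not exceed 20.2 CPM, Tumor against Prepuberty gave -3.81 (SE 1.11, adjusted p = 0.0798), and no member was called there in any comparison by edgeR, against 6.28% of genes for Tumor against Prepuberty, 1.27% for Tumor against DCIS and 0% for DCIS against Prepuberty. The numbers of genes at an unadjusted p under 0.05 in these 3 comparisons were 3839, 3284 and 1653, and DESeq2 called 2286, 1673 and 299.

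Per cell, a median of 16.5% of fibroblast-like cells (7.77 to 25.4% over libraries, 33% unthinned) and 14.2% of endothelial-like cells (10.8 to 27.3%, 32.8% unthinned) had a Cxcl12 UMI after thinning to 2000 UMIs. In macrophage-like cells, which should lack it, the share was at most 0.741%. Thinning left out 2 to 136 endothelial-like and 6 to 52 fibroblast-like cells per library, and median depths per library were 3736 to 9728 UMIs in endothelial-like, 7783 to 13111 in fibroblast-like and 3653 to 6417 in macrophage-like cells.

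**Figure D4:**
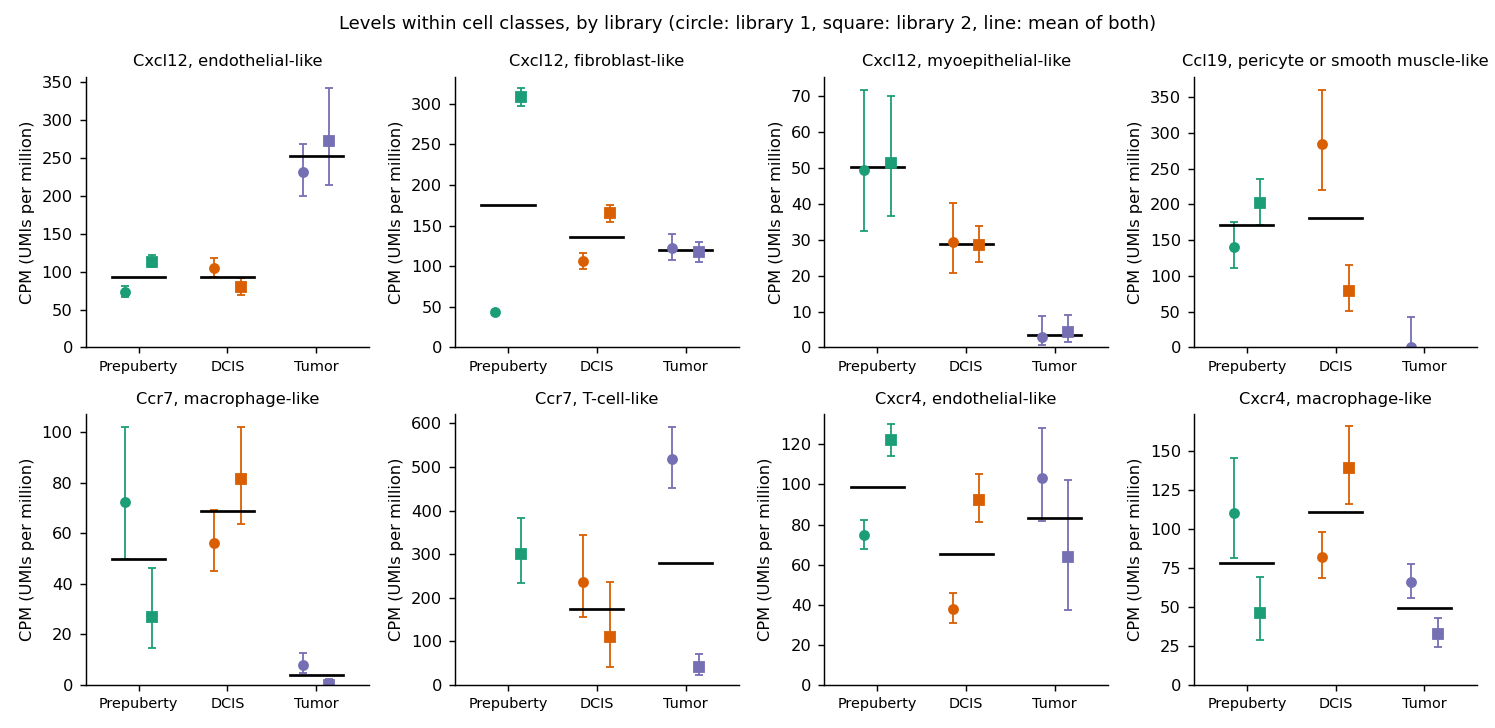
CPM of Cxcl12, Ccl19, Ccr7 and Cxcr4 within named cell classes, by state, with circles for library 1, squares for library 2, vertical lines for 95% counting intervals and a black line for the mean. Endothelial-like Cxcl12 is highest in Tumor at 232 and 273 CPM, and macrophage-like Ccr7 is lowest there at 7.91 and 0 CPM.

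Ccr7, which guides mature dendritic cells and naive T cells along Ccl19 and Ccl21, was most abundant in activated dendritic-like cells, the cluster with Ccl22 and Ccl17 among its leading genes. Its level there was 1012 and 2904 CPM in Prepuberty, 1993 and 1246 CPM in DCIS, and 715 and 0 CPM in Tumor. The 0 in Tumor 2 rests on 6 cells and the value in Prepuberty 1 on 8. After thinning, a median of 78.9% of these cells had a Ccr7 UMI in the libraries with at least 10 of them, while the median share in fibroblast-like cells was 0%.

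In T-cell-like cells Ccr7 was at 301 CPM in Prepuberty 2, 237 and 109 CPM in DCIS, and 519 and 41.2 CPM in Tumor. The Tumor libraries held both the highest and the lowest value, so the states overlapped and no change was called (log2 fold change 0.74 for Tumor against DCIS, SE 0.78, adjusted p = 0.763). Without Tumor 2 the difference was 1.62, and without Tumor 1 it was -2.26, each from a fit with a single Tumor library. The DCIS and Tumor libraries did not overlap for 44% of genes in this class. Neither of the 2 members tested in T-cell-like cells was called by edgeR with all libraries, where 0.467% of genes were, with 491 genes at an unadjusted p under 0.05 and 30 called by DESeq2. In B-cell-like cells Ccr7 was at 384 CPM in Prepuberty 2 and 341 CPM in Tumor 1, the only libraries with at least 10 such cells.

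In macrophage-like cells Ccr7 was lower in Tumor than in both gland states. It was at 72.4 and 27 CPM in Prepuberty, 56.2 and 81.4 CPM in DCIS, and 7.91 and 0 CPM in Tumor. Both Tumor libraries were below all gland libraries, with a log2 fold change of -4.41 against DCIS (SE 0.89, adjusted p = 0.0223) and -3.86 against Prepuberty (SE 0.93, adjusted p = 0.0372). States were separated in either direction for 65.8% of genes in Tumor against DCIS and 53.8% in Tumor against Prepuberty in this class. Ccr7 was the only member called of the 2 tested, where 6.3% and 5.85% of genes were called, and DCIS against Prepuberty called neither member and 0.0893% of genes. Ccr7 passed the low-count filter only on the gland libraries, where it is high, so these calls are descriptions.

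These calls did not hold under every setting. DESeq2 gave adjusted p-values of 0.121 and 0.216, clusters built without integration gave log2 fold changes of -2.39 and -1.40 with adjusted p-values of 0.26 and 0.613, and leaving out DCIS 1 gave 0.0956 and 0.0595. Without integration, most Tumor macrophage-like cells lay in the cluster of few gland cells described above, which was led by C1qa, and the activated dendritic-like cluster held 5 and 0 Tumor cells. With integration, the call against DCIS was also lost without DCIS 2 (0.0761), and that against Prepuberty without Prepuberty 1 (0.258). The neutrophil markers of this class, given above, were higher in Tumor, where Ccr7 was lower, and their part in the result was not tested. Ccr7-positive macrophage-like cells differed from the rest in having more H2-Aa, a class II antigen-presenting chain, at 5883 against 1596 CPM in DCIS 1 and 4828 against 1830 CPM in DCIS 2, and less C1qa, at 755 against 1814 CPM and 1692 against 2266 CPM. The dendritic chemokine Ccl22 was at 263 and 540 CPM in these cells against 9.32 and 8.75 CPM in the others.

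The difference between the classes was tested directly. For Tumor against DCIS, the Ccr7 effect in T-cell-like cells exceeded that in macrophage-like cells by 5.35 on the log2 scale (SE 0.63, adjusted p = 2.39e-14, edgeR over the 5 libraries with at least 10 cells of both classes), where 1.92% of genes passed. For Cxcr4, the same difference was 1.34 (SE 0.64, adjusted p = 0.411). The Ccr7 difference was between 4.77 and 6.64 when each library was left out, and was 3.48 without integration. With few residual degrees of freedom, the spread of each gene was taken wholly from the trend over all genes. The p-value therefore does not measure the spread of Ccr7 between these libraries, and the values with a library left out are no check of it.

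Cxcr5, the follicular homing receptor, was near the limit of detection, with 34 UMIs in 30 cells. Of these, 12 lay in activated dendritic-like cells, 8 in B-cell-like cells and 4 in T-cell-like cells. In B-cell-like cells the level was 24.4 to 45.5 CPM in the libraries with at least 10 of them, on 4 UMIs each in Prepuberty 2 and Tumor 1. In activated dendritic-like cells the counts were 1 and 0 UMIs in Prepuberty, 7 and 4 in DCIS, and 0 in both Tumor libraries, on 32 and 6 Tumor cells, and this was not tested. Over all kept cells edgeR called no difference between states.

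Cxcr4, the Cxcl12 receptor, was found in vessels, macrophages and lymphocytes in all states. Endothelial-like cells had 75 and 122 CPM in Prepuberty, 38 and 92.5 CPM in DCIS, and 103 and 63.6 CPM in Tumor. The states overlapped, and Tumor against DCIS gave 0.11 (SE 0.43, adjusted p = 0.895). Macrophage-like cells had 110 and 45.7 CPM in Prepuberty, 82.1 and 139 CPM in DCIS, and 66 and 32.6 CPM in Tumor, with a log2 fold change against DCIS of -1.65 that did not pass the test (SE 0.57, adjusted p = 0.0994).

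T-cell-like cells had Cxcr4 at 31.9 CPM in Prepuberty 2, 96.4 and 72.4 CPM in DCIS, and 104 and 31.7 CPM in Tumor, and B-cell-like cells had 104 and 102 CPM in Prepuberty 2 and Tumor 1. Medians over libraries were 83.8 CPM in endothelial-like, 74 CPM in macrophage-like and 72.4 CPM in T-cell-like cells, and these do not differ beyond the spread of 31.7 to 139 CPM over their libraries. Fibroblast-like cells had a median of 1.11 CPM. After thinning, 11.8% of endothelial-like cells (27.3% unthinned) and 14.2% of macrophage-like cells had a Cxcr4 UMI, against 0.211% of fibroblast-like cells.

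Cxcr4-positive endothelial-like cells had more Esm1, a gene of angiogenic tip cells, than the negative cells in all 6 libraries, at 1134 against 268 CPM in Tumor 1 and 806 against 25.4 CPM in Tumor 2, and at 22.4 to 77.2 against 5.87 to 24.7 CPM in the glands. The endothelial receptor Cd93 was also higher in all 6, for example 541 against 310 CPM in Prepuberty 1. In Tumor 2 only 5 cells were positive. Within the endothelial class, Cxcr4 in cluster 5 ranged from 59.8 to 149 CPM, while cluster 10 ranged from 0 to 98.2 CPM.

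The wider circuit was followed through lists of related genes. Of 14 listed genes of lymphocyte entry and adhesion, 12 were tested over all kept cells, and 6 were lower and 1 higher in Tumor against Prepuberty, with a median log2 fold change of -2.89 against 0.04 over all genes, of which 12.6% were called in either direction. Ackr1, which carries chemokines across venules, was at 94.6 and 80 CPM in Prepuberty, 92.7 and 28.2 CPM in DCIS, and 0.49 and 1.02 CPM in Tumor (log2 fold change -7.19, SE 0.72, adjusted p = 0.00659). The Tumor values were below all gland values. The libraries of the states were apart in either direction for 57.8% of genes in Tumor against Prepuberty and 63.4% in Tumor against DCIS. In Tumor against DCIS, 5 of the 12 were lower and none higher, where 4.53% of all genes were called. Endothelial-like cells, which hold Ackr1, were 9.12 to 19.1% of the cells of gland libraries and 1.83% and 1.33% of those of Tumor, and their part in the result was not tested.

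Within endothelial-like cells, 3 of 8 tested genes of that list were lower in Tumor than in DCIS, namely the adhesion molecules Vcam1 (log2 fold change -5.27, SE 1.00, adjusted p = 0.0122) and Selp (-3.35, SE 0.89, adjusted p = 0.0392), and Ackr1 (-4.58, SE 0.75, adjusted p = 0.00701), where 14.1% of all genes were called. The small share of cluster 10 among Tumor endothelial-like cells, given above, moved with them, and its part in the result was not tested. Of 4 scavenging receptors and proteases, 2 were tested in these cells. Ackr2, a decoy receptor of inflammatory chemokines, was higher in Tumor than in DCIS (6.21, SE 0.95, adjusted p = 0.00543). It stood at 2.82 and 2.76 CPM in Prepuberty, 0 and 0.361 CPM in DCIS, and 24.2 and 11.2 CPM in Tumor. Against Prepuberty the log2 fold change was 2.78 (SE 0.60). Ackr2 passed the low-count filter only on the Tumor libraries, where it is high, so its call is a description.

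Of 17 listed genes of lymphotoxin and non-canonical NF-kB signaling, which induce Cxcl13 in lymphoid stroma, 10 were tested in fibroblast-like cells for Tumor against DCIS. The transcription factor subunits Nfkb2 (log2 fold change -2.16, SE 0.45, adjusted p = 0.0376) and Relb (-1.55, SE 0.34, adjusted p = 0.0407) were lower, and Tnfsf11, the cytokine RANKL, was higher (3.73, SE 0.81, adjusted p = 0.0411), where 6.83% of all genes were called. Tnfsf11 was at 12.9 and 94.1 CPM in Tumor and at 3 CPM or less in the glands, and was among the leading genes of the fibroblast-like cluster of 185 Tumor 2 cells found without integration. It passed the low-count filter mainly on the Tumor libraries, where it is high, so its call is a description. T-cell and epithelial markers in fibroblast-like cells moved with Tnfsf11. Trbc2 was at 26.8 and 164 CPM in Tumor and at most 4.62 CPM in the glands, the other 5 T-cell markers summed to 33.3 and 5.75 CPM against at most 1.62 CPM, and the epithelial markers summed to 255 and 139 CPM against 14.6 to 68.9 CPM. Their part in the result was not tested. In macrophage-like cells 12 were tested, and 2 were higher and 2 lower, where 6.3% of all genes were called. The B-cell survival factor Tnfsf13b (3.12, SE 0.67, adjusted p = 0.0298) and lymphotoxin beta, Ltb (2.84, SE 0.54, adjusted p = 0.0166), were higher. Of the 2 lower genes, Tnfrsf1b had -3.01 (SE 0.45, adjusted p = 0.00692). In DCIS, Tnfsf13b was at 2.58 and 3.39 CPM and Ltb at 3.88 and 3.39 CPM. Both passed the low-count filter mainly on the Tumor libraries, where they are high, so their calls are descriptions. The neutrophil markers in these cells, at 931 and 4909 CPM in Tumor, moved with Tnfsf13b and Ltb. Ltb is also a leading gene of T-cell-like cells, and the part of these markers and cells in the result was not tested.

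Of 4 genes of oxysterol guidance, which steers B cells and dendritic cells by a hydroxylated cholesterol, all were tested over all kept cells. Ch25h, a cholesterol hydroxylase that starts its synthesis, was at 34.9 and 35.6 CPM in Prepuberty, 16.5 and 13.5 CPM in DCIS, and 2.99 and 3.51 CPM in Tumor, and was lower in Tumor against both gland states (log2 fold change -3.72, SE 0.30, adjusted p = 0.00373 against Prepuberty, and -2.61, SE 0.29, adjusted p = 0.012 against DCIS), where 12.6% and 4.53% of all genes were called. The states did not overlap, nor did those of 57.8% of genes in Tumor against Prepuberty, 63.4% in Tumor against DCIS and 56.5% in DCIS against Prepuberty. In macrophage-like cells Gpr183, the receptor of this oxysterol, was higher in Tumor than in DCIS (2.66, SE 0.47, adjusted p = 0.0131), where 6.3% of genes were called. It was at 0 and 2.08 CPM in Prepuberty, 11.6 and 7.91 CPM in DCIS, and 102 and 86.7 CPM in Tumor. Gpr183 passed the low-count filter mainly on the Tumor libraries, where it is high, so its call is a description. The neutrophil markers of this class moved with Gpr183, and their part in the result was not tested. Of 8 other lymphocyte chemokines and receptors, 3 were tested in endothelial-like cells for Tumor against DCIS, where Cxcl9 (-3.93, SE 0.64, adjusted p = 0.00687) and Cxcl16 (-2.95, SE 0.37, adjusted p = 0.00283) were lower and Cxcl10 was higher (2.61, SE 0.70, adjusted p = 0.0398), in a comparison that called 14.1% of all genes. The macrophage markers in these cells, at 81.2 and 81.3 CPM in DCIS and 21.7 and 29.9 CPM in Tumor, and the share of cluster 10, given above, were also lower in Tumor, and their part in the result was not tested. Cxcl10 stood there at 161 and 222 CPM in Prepuberty, 59.2 and 71.9 CPM in DCIS, and 125 and 1010 CPM in Tumor, so its level rested on Tumor 2. In macrophage-like cells Cxcl10 was lower in Tumor than in DCIS (-2.56, SE 0.57, adjusted p = 0.0308), as it was over all kept cells against Prepuberty (-3.19, SE 0.80, adjusted p = 0.0456). In DCIS against Prepuberty no gene of these lists passed the test over all kept cells, nor did any of the 15614 genes tested.

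Over the 50 sums of a class in a library with at least 10 cells, the genes whose log2(CPM + 1) pattern was most like each member's differed between members. These points share libraries and depth, so the correlations are descriptions. Cxcl13 was closest to Saa3 (Pearson r = 0.71), Adam33 (0.68) and Ptges (0.66), and Ccl19 to Gm10309 (0.85), Dnajc6 (0.83) and Cdh6 (0.81). Ccl21a was closest to Serpina1b and Hoxc10 (both 0.68) and Hoxa9 (0.67), and Cxcl12 was close to Eln and Ptprg (both 0.86).

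Ccr7 was closest to Pdcd1lg2 (0.95), the ligand PD-L2 of dendritic cells, Clec2i (0.92) and P2ry10 (0.90). Cxcr4 was closest to the leukocyte genes Hcls1 and Inpp5d (both 0.90) and Nrros (0.88). Cxcr5 had too few UMIs in these sums to be ranked.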

How the data were processed

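Single-cell RNA-seq (10x Genomics, 3′ chemistry) was performed on 6 libraries, 2 each from Prepuberty, DCIS and Tumor. The deposited values are raw UMI counts per gene and barcode, which the authors made with Cell Ranger (3.0.2 per the file headers) on mm10. The submitters' notes also list STAR, SAMtools, Picard and Salmon without a role. The 7 members and the gene lists were chosen with earlier results of these data known.

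Cells with at least 200 genes and under 10% mitochondrial UMIs were kept, 707 barcodes with the highest Scrublet scores were removed at 0.8% per 1000 cells since the automatic threshold marked only 31, and libraries were integrated and clustered with Seurat 5.3.0 (2000 variable genes, 20 dimensions, resolution 0.8). Of the rest removed, 546 barcodes had too few genes and 1045 too many mitochondrial UMIs. A cluster was named X-like when at least 3 fixed markers reached 2-fold in at least 25% of its cells, unless its 10 leading genes held at least as many markers of another class. Cluster 0, of 2186 cells, passed 4 of 6 fibroblast markers and stayed unnamed for this reason. UMIs were summed per class and library with at least 10 cells and tested with edgeR 4.0.16 (TMM, filterByExpr, quasi-likelihood, Benjamini-Hochberg over all genes tested, threshold 0.05) in R 4.3.3, with DESeq2 1.42.0 as an alternative. The difference of a state effect between classes was tested with the library as a term. B-cell-like, pericyte or smooth muscle-like, myoepithelial-like and activated dendritic-like sums were not tested. Intervals are exact at 95%, and the floor is 3 counts over the group. Shares were compared after thinning cells to 2000 UMIs. On simulated data for fibroblast-like cells, Tumor against DCIS, 188 of 200 genes changed 8-fold among 11376 were recovered, with 9 false calls. Kept libraries held 28512209 to 57143434 UMIs. The named genes are the members, their copies, up to 3 genes of each list and comparison past the threshold with the largest change, and the 3 genes most like each member, of which some are not reported here. Replicates of a state were not duplicates (chi-square per degree of freedom 78.8 to 385). Markers set beside members inside a class were chosen after their values were seen.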

Additional observations from a re-analysis of the deposited data

Results flagged for a closer look

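The change of Ccr7 from DCIS to Tumor differed between T-cell-like and macrophage-like cells by 5.35 on the log2 scale (SE 0.63, adjusted p = 2.39e-14, edgeR), and it was singled out because this difference between the classes was tested itself and passed. The macrophage-like change was -4.41 and the T-cell-like change 0.74, the latter not past the test on its own. The difference was 3.48 without integration and from 4.77 to 6.64 with each of the 5 libraries left out in turn. It rests on 2 residual degrees of freedom, with the spread of each gene taken wholly from the trend over all genes, and leaving out a DCIS or Tumor library leaves 1 library in that state, so these values are no check of the p-value.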

How the results depend on the processing

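The members called per comparison were computed again under the alternatives named here and at cluster resolution 1.2, and no member called in a comparison turned its direction. DESeq2 called 3 members over all kept cells for Tumor against DCIS, 2 in endothelial-like and 1 in epithelial-like cells for Tumor against Prepuberty, and 0 in macrophage-like cells in either comparison with Tumor. Without a filter on low counts, for DCIS against Prepuberty, Tumor against DCIS and Tumor against Prepuberty, epithelial-like cells had 3, 2 and 3 calls, endothelial-like cells 1, 2 and 2, and the endothelial-fibroblast difference 1, 1 and 1. Fibroblast-like cells had 2 for both comparisons with Prepuberty, macrophage-like cells 2 for Tumor against DCIS, and all kept cells 1 for DCIS against Prepuberty and 3 for Tumor against DCIS. A mitochondrial limit of 5% left 0 calls in endothelial-like cells, clusters without integration left 0 in macrophage-like cells, and removing more doublets gave 1 over all kept cells for Tumor against DCIS.

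Same-numbered Prepuberty and DCIS libraries deviated together (correlation 0.24) but those with Tumor did not (-0.06 and 0.01), so the numbers were not taken to pair the libraries. With the replicate number as a block, 3 of 16 comparisons changed, all in endothelial-like cells, with 1, 2 and 2 calls for DCIS against Prepuberty, Tumor against DCIS and Tumor against Prepuberty, the added call being Ccl21a each time (adjusted p = 0.0169, 0.00925 and 0.000455). Ccl21a passed the low-count filter in this class only on libraries where it is high, so these added calls are descriptions.

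Leaving out each library gave 0 to 0 calls in endothelial-like cells for Tumor against DCIS and 0 to 2 against Prepuberty, 0 to 2 and 0 to 1 in macrophage-like cells, 0 to 1 in T-cell-like cells, 0 to 1 and 0 to 3 over all kept cells, and 0 to 1 for each endothelial-fibroblast difference. Among fold changes not called, Cxcl12 in fibroblast-like cells for DCIS against Prepuberty, at -0.14, was 0.14 with the replicate block, 0.37 without integration, and 0.05 both with cluster 0 and without cluster 19, and Ccl19 for Tumor against DCIS, at 0.55, was -0.08 at resolution 1.2 and -0.52 with cluster 0. Epithelial-like Cxcr4 turned without integration in all 3 comparisons, to 0.27 for DCIS against Prepuberty, 0.22 for Tumor against DCIS and 0.49 for Tumor against Prepuberty, with cells holding Epcam, Krt8 or Krt18 only to 0.24 in the first and 0.08 in the last, and in the first also to 0.02 without a filter and 0.03 with more doublets removed. Over the libraries left out, for DCIS against Prepuberty, Tumor against DCIS and Tumor against Prepuberty, epithelial-like Cxcr4 ranged from -0.73 to 1.01, -1.35 to 0.45 and -1.30 to 0.80, and endothelial-like Cxcr4 from -0.95 to 0.15, -0.64 to 0.72 and -0.93 to 0.14. For DCIS against Prepuberty the ranges were -0.90 to 1.87 for fibroblast-like Cxcl12, -3.60 to 0.06 for epithelial-like Cxcl12, -0.09 to 1.67 and -0.01 to 1.59 for macrophage-like Ccr7 and Cxcr4, and, over all kept cells, -0.04 to 3.01 for Cxcr5, -0.13 to 2.86 for Ccr7, -1.65 to 0.41 for Cxcl12 and -1.11 to 0.04 for Cxcr4. For Tumor against DCIS they were -5.29 to 5.81 for fibroblast-like Ccl19, and -2.26 to 1.62 and -1.54 to 0.38 for T-cell-like Ccr7 and Cxcr4, and for Tumor against Prepuberty -1.74 to 1.03 for fibroblast-like Cxcl12 and, over all kept cells, -0.30 to 2.02 for Cxcr5 and -5.06 to 0.94 for Ccr7. Leaving out libraries for the differences between classes, the ratios and the bounds was chosen after seeing the data, as was giving marker lists without their most abundant gene, and so were adding unnamed cluster 0 to the fibroblast-like cells, leaving out their cluster 19 and keeping only epithelial-like cells with Epcam, Krt8 or Krt18, which gave 0 calls in fibroblast-like and epithelial-like cells as before. The mean Cxcl13 level of Prepuberty over all kept cells was 37.5 CPM at the 5% mitochondrial limit and 38 CPM with more doublets removed. Unthinned shares were 33% and 32.8% for Cxcl12 in fibroblast-like and endothelial-like cells, 27.3% and 25.8% for Cxcr4 in endothelial-like and macrophage-like cells, and 25.9% for Ccl19, and at 3000 UMIs the endothelial-like Cxcr4 share was 18.4%. The causes of these shifts were not tested. The small number of Tumor endothelial-like, pericyte and B-cell-like cells limits what depth can show, and B-cell-like cells allowed no test.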
